A study of Mus musculus with 141 samples.

Results

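The sequence described here is the CpG-dense DNA that was methylated in vehicle-treated mouse glioma cells. Its members are 3990 of the 1416034 cytosine positions of a table of single-cell reduced representation bisulfite sequencing. A position was taken when it lies on an autosome, when 20 or more other positions of the table lie within 100 bp either side, and when it had 4 or more calls with a mean methylated fraction of 0.5 or more in DMSO library pools 5 and 6. Of 1370938 autosomal positions, 255195 were that dense, 71325 of these had 4 or more calls in the choosing pools, and 3990 (5.59%) reached the mean. The other 67335 dense positions with enough calls lay below it. Because the level in DMSO pools 5 and 6 chose the members, that level is no result, and AG-881 was set only against DMSO pools 7 and 8.

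The cells were IdhR132H mouse glioma cells, a cultured line that carries a mutant isocitrate dehydrogenase (IDH). The treated cells were kept with 1 µM AG-881 (vorasidenib, an inhibitor of mutant IDH1 and IDH2) for more than 2 weeks, and the others with its vehicle, DMSO. All cells were therefore IDH-mutant, and no cells without the mutation were analysed here. Live single cells, told by a viability dye and a dead-cell dye, were sorted into plates and processed for joint methylome and transcriptome profiling. The table holds 67 AG-881 cells in pools 1 to 4 (14, 18, 19 and 16 cells) and 74 DMSO cells, of which 35 in pools 5 and 6 chose the members and 39 in pools 7 and 8 (19 and 20 cells) were compared. Called positions per cell had a median of 94522 in AG-881 cells (range 25193 to 202034) and 73711 in DMSO pools 7 and 8 (range 28172 to 175766). Only 1 plate per arm is named and no separate cultures are, which makes each arm 1 sample. No test was possible and no p-value is given. Intervals of levels are exact (Clopper-Pearson) 95% binomial intervals over pooled calls, and the interval of a difference is built from those of its 2 levels. They cover counting error only, beside a count of 0 the share that 3 counts would make up is given as its limit, and the calls of 1 cell at neighbouring positions go together. Every pool holds cells of 1 arm, and differences between pools and between arms cannot be told apart.

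Most CpGs of the mammalian genome are methylated, while CpG islands, the CpG-dense stretches over many promoters, are usually free of methylation. Exceptions in normal tissue include 1 parental copy at imprinted genes, the promoters of germline genes and part of the ribosomal DNA repeats, and in cultured or tumour cells many islands of developmental genes gain methylation. The TET enzymes start the removal of methyl groups by oxidising 5-methylcytosine. Mutant IDH makes 2-hydroxyglutarate, which inhibits TET enzymes, and human gliomas with mutant IDH have methylated CpG islands at many genes.

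Promoter windows with members show what the positions look like. RefSeq windows of 300 bases (GRCm38.p6, the sequence of mm10), from 250 bases before to 50 bases after a listed start, held 5 or more members in 57 of 31396 cases. All 57 contained the MspI site CCGG, which 53.5% of all windows contain, and they had a median of 38 CpGs, against 7 over all windows. Both follow largely from the choice, as the rule asks for density and the method reads MspI fragments. Of the table positions inside promoter windows, 98.4% fell on the C or the G of a CpG. Density counts positions on both strands, so 20 positions can be fewer than 20 CpGs. The 6 windows printed here are those of Tmem267, Emid1 and Runx3, where levels were higher in AG-881 cells, of the imprinted gene Grb10, where the level was lower, and of Sstr4 and the germline gene Ddx4, which were nearly fully methylated. Capitals mark CpGs that hold a member, and each sequence is written 5′ to 3′ on the strand of its gene.
Tmem267 (chr13:119488223-119488522, + strand): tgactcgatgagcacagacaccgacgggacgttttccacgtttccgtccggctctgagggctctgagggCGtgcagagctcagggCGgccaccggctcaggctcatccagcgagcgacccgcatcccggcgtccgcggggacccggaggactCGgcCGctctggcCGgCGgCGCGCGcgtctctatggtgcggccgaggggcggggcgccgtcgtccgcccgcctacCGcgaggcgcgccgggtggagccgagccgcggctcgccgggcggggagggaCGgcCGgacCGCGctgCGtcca
Emid1 (chr11:5152181-5152480, - strand): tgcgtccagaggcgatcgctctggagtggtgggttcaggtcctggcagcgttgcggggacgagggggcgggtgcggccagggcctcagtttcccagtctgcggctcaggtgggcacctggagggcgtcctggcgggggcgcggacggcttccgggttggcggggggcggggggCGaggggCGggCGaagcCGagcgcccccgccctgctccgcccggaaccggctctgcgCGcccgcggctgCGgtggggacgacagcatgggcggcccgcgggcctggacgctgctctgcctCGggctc
Runx3 (chr4:135152295-135152594, + strand): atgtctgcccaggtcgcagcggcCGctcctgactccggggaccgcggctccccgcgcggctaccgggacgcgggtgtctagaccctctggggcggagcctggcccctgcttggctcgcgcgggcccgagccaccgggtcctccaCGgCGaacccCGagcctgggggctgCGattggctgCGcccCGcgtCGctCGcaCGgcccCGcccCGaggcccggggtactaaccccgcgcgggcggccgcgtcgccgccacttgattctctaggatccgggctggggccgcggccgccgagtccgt
Grb10 (chr11:12037371-12037670, - strand): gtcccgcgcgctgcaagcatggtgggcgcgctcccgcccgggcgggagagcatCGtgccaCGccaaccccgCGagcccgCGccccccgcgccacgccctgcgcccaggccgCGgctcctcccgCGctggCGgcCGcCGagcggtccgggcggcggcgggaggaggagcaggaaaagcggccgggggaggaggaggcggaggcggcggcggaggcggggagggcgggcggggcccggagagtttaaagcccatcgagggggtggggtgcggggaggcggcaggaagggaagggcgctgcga
Sstr4 (chr2:148395127-148395426, + strand): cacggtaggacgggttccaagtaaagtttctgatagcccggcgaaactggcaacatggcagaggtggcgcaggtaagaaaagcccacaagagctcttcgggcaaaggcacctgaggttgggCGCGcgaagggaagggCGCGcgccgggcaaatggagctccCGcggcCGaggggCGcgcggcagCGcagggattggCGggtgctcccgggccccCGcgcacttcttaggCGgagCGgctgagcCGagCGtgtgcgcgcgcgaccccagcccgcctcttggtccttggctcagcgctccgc
Ddx4 (chr13:112652261-112652560, - strand): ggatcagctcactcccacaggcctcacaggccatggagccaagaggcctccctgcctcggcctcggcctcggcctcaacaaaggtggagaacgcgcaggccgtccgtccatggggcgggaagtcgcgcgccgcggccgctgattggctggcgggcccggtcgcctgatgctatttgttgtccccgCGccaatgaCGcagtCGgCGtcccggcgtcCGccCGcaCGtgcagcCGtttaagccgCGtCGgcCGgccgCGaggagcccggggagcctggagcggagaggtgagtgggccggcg

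In these windows the members were part of the CpGs and not all of them. Members covered 15 of 50 CpGs at Tmem267, 7 of 37 at Emid1, 12 of 45 at Runx3, 9 of 45 at Grb10, 14 of 35 at Sstr4 and 12 of 38 at Ddx4. CpGs in lower case either had fewer calls, a lower level or no place in the table.

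The members were less methylated in AG-881 cells than in the DMSO cells that had not chosen them. Of the calls at members, 58.7% were methylated in AG-881 cells (interval 58.2 to 59.2, 37769 calls) and 63.6% in DMSO pools 7 and 8 (interval 62.9 to 64.3, 19143 calls), a difference of -4.88 percentage points (interval -5.73 to -4.03). By pool the level was 55.6%, 58.1%, 65.2% and 55.7% in AG-881 pools 1 to 4, and 63.8% and 63.4% in DMSO pools 7 and 8. AG-881 pool 3 therefore lay above both DMSO pools and the other 3 AG-881 pools below them, so the arms overlap by pool. Without pool 3 the difference was -7.10 points, and it lay between -5.10 and -3.68 points without any other single pool.

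A single block supplied a large share of these calls. On chromosome 17, 206 members between 39843103 and 39848698 lie around Rn18s-rs5, an 18S ribosomal RNA sequence. They had a median of 33 calls per member in AG-881 cells and 21 in DMSO pools 7 and 8, against 8 and 3 calls at the other members, and made up 18% of the AG-881 member calls and 22.3% of the DMSO ones. Ribosomal DNA exists in many copies, so these calls may come from any copy. The block had 80.3% in AG-881 cells (interval 79.3 to 81.2) and 82.2% in DMSO cells (interval 81 to 83.4), with 85.3%, 73.1%, 84.8% and 78.2% in AG-881 pools 1 to 4 and 79.4% and 84.9% in DMSO pools 7 and 8. Both DMSO pools lay within the range of the AG-881 pools there. Without the block, 3784 members remained, with 54% of calls methylated in AG-881 cells (interval 53.4 to 54.5) and 58.3% in DMSO cells (interval 57.5 to 59.1), a difference of -4.28 points (interval -5.25 to -3.31). AG-881 pools 1 to 4 then had 49%, 54.3%, 59.8% and 52.5%, and DMSO pools 7 and 8 had 59.1% and 57.5%. The levels that follow leave the block out unless stated.

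**Figure D1:**
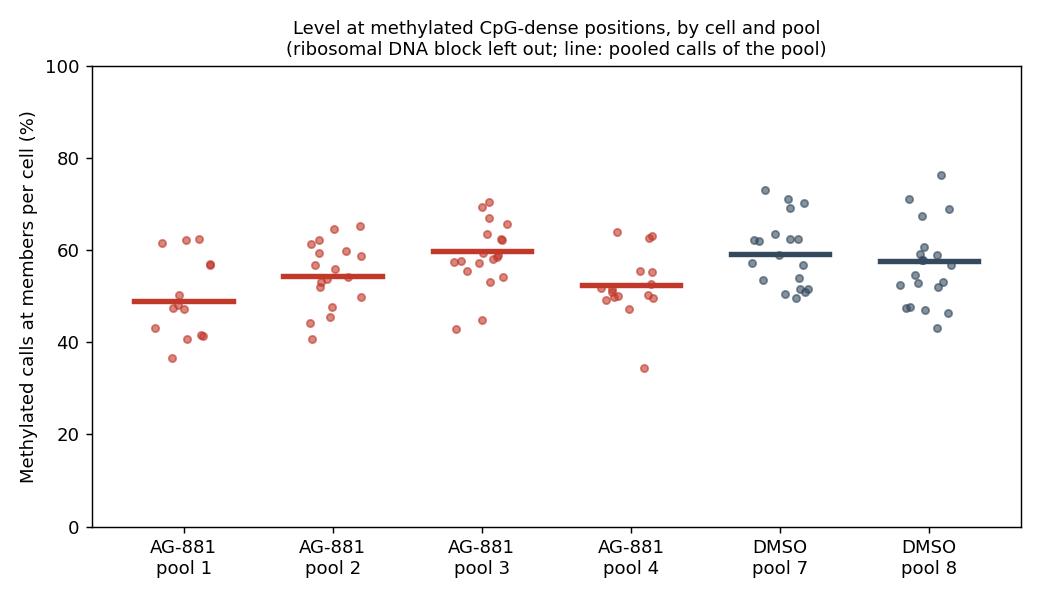
Percentage of methylated calls at the 3784 members outside the ribosomal DNA block (y axis, %) in each cell (points), by pool (x axis), with AG-881 pools 1 to 4 in red and DMSO pools 7 and 8 in dark blue; lines give the pooled level of each pool. AG-881 pool 1 has the lowest pooled level (49%) and AG-881 pool 3 the highest (59.8%), and the cells of all pools overlap.

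Single cells of both arms overlapped widely. The level at members was 54.3% ± 8.05 over 67 AG-881 cells, with a lowest, median and highest cell at 34.5%, 55.2% and 70.3%. In the 39 cells of DMSO pools 7 and 8 it was 58% ± 8.31, with 43%, 57.3% and 76.3% (SDs over cells are descriptions). Each cell had between 124 and 959 member calls in AG-881 cells and between 141 and 806 in DMSO cells. Over all other autosomal positions the same cells had 32% ± 3.52 in AG-881 cells and 32.7% ± 2.43 in DMSO cells, so the arms lay closer together there. As means over cells, AG-881 pool 1 was the lowest pool both at members (49.7%) and elsewhere (29.9%). Pool 3 was the highest AG-881 pool at both (58.8% and 35.4%), and elsewhere it lay above both DMSO pools (33% and 32.4%). The order was not the same throughout: AG-881 pool 4 had 52.4% at members and 31.7% elsewhere, while pool 2 had 54.7% and 30.2%.

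The level of the members was lower in pools that had not chosen them. Of the 3898 members (block included) with 2 or more calls in AG-881 cells, 60.6% had a mean of 50% or more there (interval 59.1 to 62.2), and of the 3410 with as many calls in DMSO pools 7 and 8, 67.4% did (interval 65.8 to 68.9). As few as 4 calls chose a member, so that a lower share in other pools follows in part from the choice itself. With 8 or more choosing calls, 369 members remained, and 85.9% of those with 2 or more calls in DMSO pools 7 and 8 had 50% or more there. This set includes the block, where calls per member were most numerous, and the part of the block in that share was not counted. Without the block, and with 4 or more choosing calls, the share in DMSO pools 7 and 8 was 65.5% of 3204 members. Among dense positions below the rule's level the shares with 2 or more calls were 0.895% in AG-881 cells and 1.90% in DMSO cells. With 2 calls, 1 methylated call reaches 50%, and members outside the block had a median of 8 AG-881 calls and 3 DMSO calls. With 4 or more calls the shares were 59.3% in AG-881 cells and 65.9% in DMSO cells at members. At those other dense positions they were 0.808% and 1.41%. Members just inside the threshold, with a choosing mean of 0.5 to below 0.6 (1240 positions), had 35% in AG-881 cells and 39.2% in DMSO pools 7 and 8. Dense positions just outside it, with a mean of 0.4 to below 0.5 (714 positions), had 28% in AG-881 cells and 33.1% in DMSO cells. The threshold thus cuts through a continuous range.

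Positions of lower density that were chosen in the same way differed less between the arms. Where 5 to 19 positions lay within 100 bp, positions with a mean of 0.5 or more had 78.3% in AG-881 cells and 79.6% in DMSO cells (-1.32 points, interval -1.58 to -1.05). Where at most 4 did, they had 82.9% and 83.6% (-0.690 points, interval -0.896 to -0.484). Dense positions below the rule's level had 2.08% in AG-881 cells and 2.57% in DMSO cells (-0.484 points). These classes also differ in level, so they were split by their mean in the choosing pools. At a mean of 50% to below 75%, members had 39.2% in AG-881 cells and 44.4% in DMSO cells, a difference of -5.21 points (interval -6.56 to -3.86), against -2.60 points (interval -3.26 to -1.93) where 5 to 19 positions lay within 100 bp and -1.66 points (interval -2.26 to -1.05) where at most 4 did. At 75% to below 100% the differences were -2.88, -1.23 and -0.619 points in the same order of density, and at 100% they were -1.84, -0.296 and -0.408 points. The members had the most negative difference at each of the 3 levels, but their interval overlapped that of the class with 5 to 19 positions at 75% to below 100%, and those of both other classes at 100%. Even at matched choosing levels, members were lower in the held-out DMSO pools than sparser positions, which had 55.4% and 63% in the lowest of these classes.

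**Figure D2:**
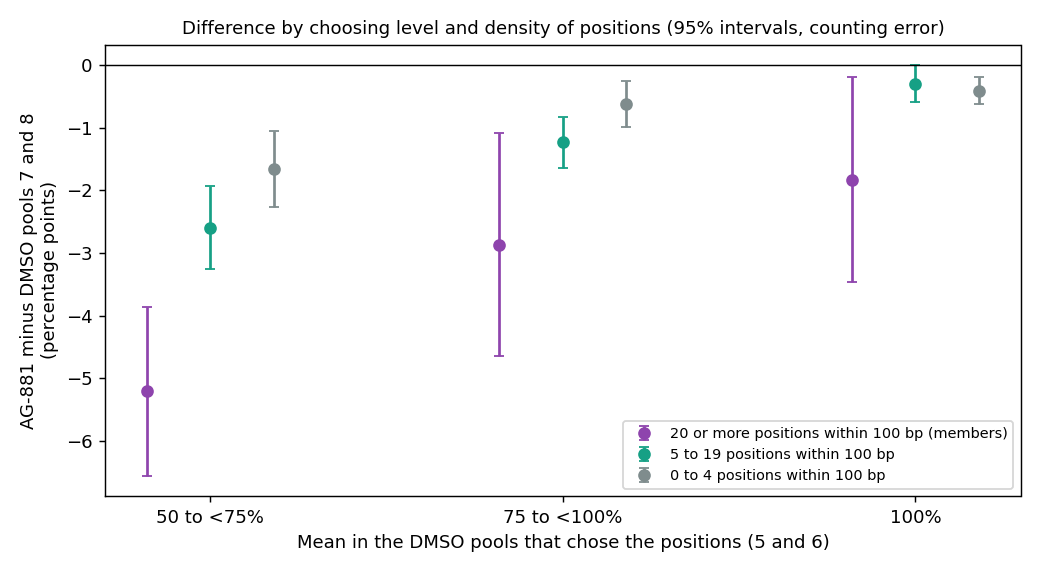
Difference in methylated calls between AG-881 and DMSO pools 7 and 8 (y axis, percentage points, with 95% intervals for counting error) for positions grouped by their mean in DMSO pools 5 and 6 (x axis) and by the number of table positions within 100 bp (colours). Members (purple) lie lowest in each group, from -5.21 to -1.84 points, and the other classes lie between -2.60 and -0.296 points.

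Within the members, the difference between the arms varied little with density, while the level was highest at 20 to 24 neighbours. Members with 20 to 24, 25 to 29 and 30 or more neighbours had 56%, 51.6% and 51.3% in AG-881 cells, and 60.9%, 54.5% and 55.5% in DMSO cells. The differences were -4.93, -2.90 and -4.18 points, with overlapping intervals. The denser the sequence, the smaller was the share of positions that had become members: 6.55% with 20 to 24 neighbours, 4.94% with 25 to 29, 3.95% with 30 to 34 and 3.44% above that. By chromosome the share ran from 2.35% on chromosome 10 to 9.79% on chromosome 7.

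Members lay farther from gene starts than other dense sequence did, although most were close to genes. Of the 3784 members, 62.1% were within 1 kb of either end of a protein-coding gene, against 79.2% of the dense positions below the rule's level. A further 32.8% lay deeper inside genes and 5.05% farther outside, against 19.6% and 1.21%. In the promoter table, which does not list a start for every gene, 52.6% of members and 77.4% of the other dense positions were within 1 kb of a listed start. Members near gene ends had 50% methylated calls in AG-881 cells and 54% in DMSO cells (-4.04 points, interval -5.31 to -2.77), and those deeper inside genes had 60.4% and 65.3% (-4.89 points, interval -6.47 to -3.30). The 191 members farther outside genes had 58.8% in AG-881 cells and 57.1% in DMSO cells. The difference had an interval (-2.83 to 6.16 points) that included 0.

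Members tended to lie in runs, which follows in part from the density that the rule asks for. With the ribosomal DNA block included, chains of members with gaps of up to 100 bp numbered 1046, of which 339 were single positions, 417 held 2 to 4 members and 290 held 5 or more. The 290 are called member regions here. With the 5 regions of the block, they hold 2488 members with a median of 7 each and have a median length of 69 bp (7 to 742 bp). Positions in regions had 61.9% in AG-881 cells and 66.2% in DMSO cells, and members outside them 42.3% and 45.9%. The differences were -4.36 and -3.57 points. Within 1 kb of 265 of the 285 regions outside the ribosomal DNA block lay a protein-coding gene, 241 different genes in all, and 12 regions had no gene of any kind there. A listed start lay within 1 kb of 147 regions and inside 22.

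Methylation was not confined to the regions. At all table positions in the 200 bp around the centre of a region, the level was 53.1% in AG-881 cells and 58.2% in DMSO cells. At non-members 500 to 1000 bp away it was 48.3% in AG-881 cells and 51.7% in DMSO cells, and at 1000 to 3000 bp 44.7% and 48.8%. The flanks thus also lay lower in AG-881 cells, by -3.35 points (interval -4.53 to -2.18) and -4.07 points (interval -5.27 to -2.88). Members were left out of these flanks, so no dense position with enough calls and a choosing mean of 0.5 or more is among them.

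**Figure D3:**
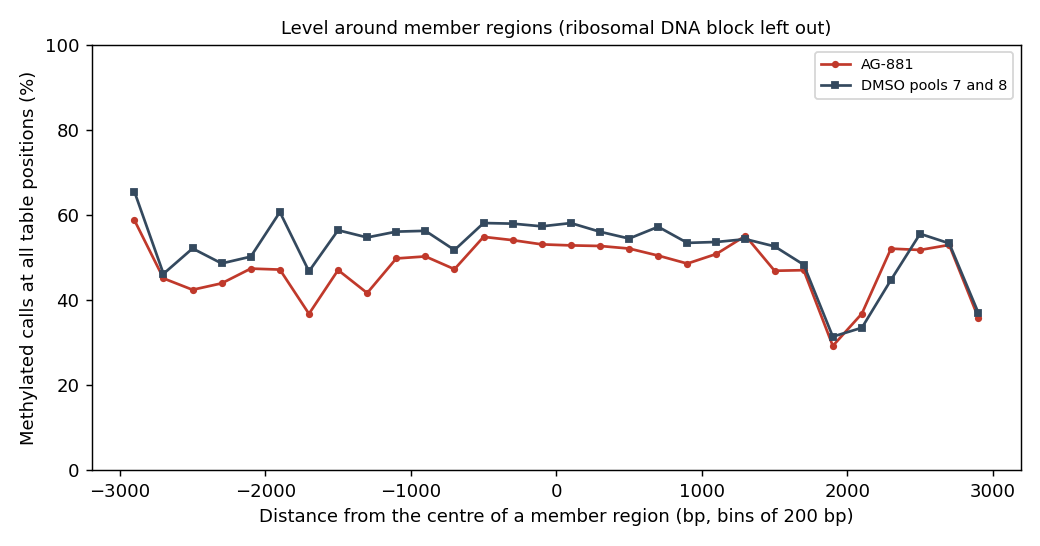
Methylated calls at all table positions (y axis, %) by distance from the centre of the 285 member regions outside the ribosomal DNA block (x axis, bp, bins of 200 bp), for AG-881 (red circles) and DMSO pools 7 and 8 (dark blue squares). Bins within 1000 bp of the centre lie between 47.2% and 54.8% in AG-881 cells and between 51.7% and 58.1% in DMSO cells, and the curves cross farther out on the right.

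Single cells carried regions in mixed states as well as fully methylated. In pairs of a cell and a region with 4 or more calls, all calls were methylated in 27.6% of 2506 pairs in AG-881 cells (interval 25.8 to 29.4) and in 30.6% of 1230 pairs in DMSO cells (interval 28 to 33.2). No call was methylated in 12.8% of pairs in AG-881 cells (interval 11.6 to 14.2) and in 9.43% in DMSO cells (interval 7.86 to 11.2). The remaining 59.6% and 60% held both kinds of call. AG-881 cells thus had more pairs without methylation and about as many mixed ones.

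Both decreases and increases occurred among the regions. A region was compared when it had 20 or more calls and 5 or more cells on each side, which 144 regions had (139 outside the ribosomal DNA block). With AG-881 and the block included, 36 of 144 (25%) were lower by 10 points or more and 23 (16%) were higher by as much. Among all 11886 regions built in the same way from every class of autosomal position, 4.43% were lower and 2.25% higher by that size. The closest class, methylated regions of lower density, had 11.6% of 1091 lower and 9.17% higher, and dense regions below the rule's level had 2.36% of 3821 lower and 1.02% higher. The median difference over member regions was -2.25 points (quartiles -9.78 and 4.99), against 0 over all regions and -0.238 points over methylated regions of lower density. Most regions rested on few calls, with medians of 69 calls in AG-881 cells and 39 in DMSO cells. The interval of the difference lay wholly below 0 in 17 of the 144 regions and wholly above 0 in 10. These counts were 348 and 120 of all 11886 regions, and 40 and 44 of the 1091 methylated regions of lower density. Without DMSO pool 7 the counts were 18 lower and 7 higher, and without pool 8 they were 16 and 5, of 63 and 46 regions that still had enough calls.

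**Figure D4:**
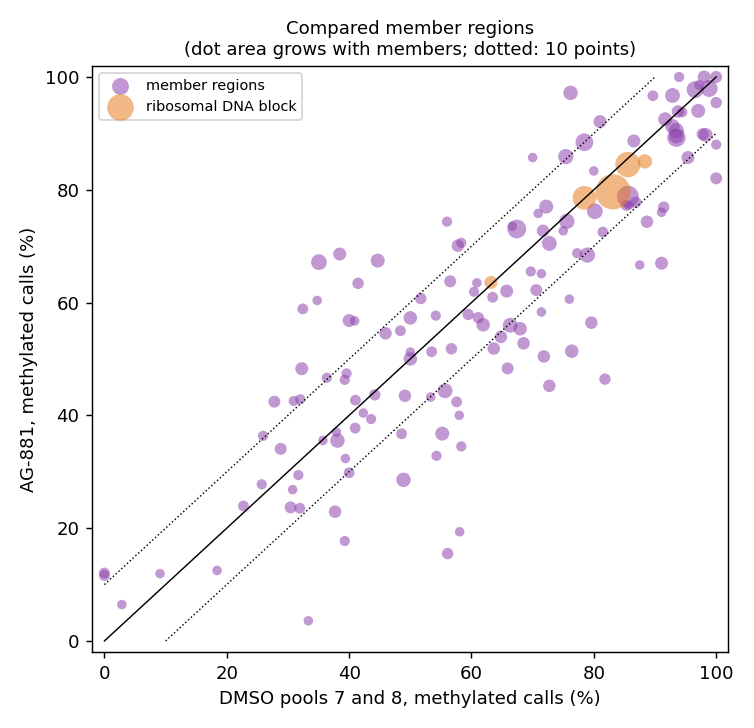
Methylated calls in AG-881 cells (y axis, %) against DMSO pools 7 and 8 (x axis, %) in the 144 compared member regions; dot area grows with the number of members, orange dots lie in the ribosomal DNA block, the solid line is equality and dotted lines mark 10 points. Below the lower dotted line or on it lie 36 regions, and 23 lie above the upper one or on it.

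Of the 139 compared regions outside the ribosomal DNA block, 14 had 90% or more in both arms, 36 were below 50% in both, and 5 were at 20% or less in both. The 14 regions high in both arms included those of Sstr4, a somatostatin receptor gene, Boll, a germ cell RNA-binding protein gene, Klf14, a Krüppel-like factor gene, and Nsd1, which encodes a histone methyltransferase. At Sstr4 (chr2:148395248-148395374) 96.7% of 61 calls were methylated in AG-881 cells and 92.9% of 42 in DMSO cells. Boll had 90.5% in AG-881 cells and 93.5% in DMSO cells, and Nsd1 100% of 99 calls and 98% of 51. The 5 regions at 20% or less lay at Gpr45, Fzd9, Klf2, E2f6 and Nrxn2, where the choosing level was not found again in either arm. Fzd9, a Wnt receptor gene, had 11.6% in AG-881 cells and 0 of 35 DMSO calls, all of these from pool 7, which allows a share of up to 8.57%. These genes were named after their values were seen.

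In 65 regions, block included, at least 10 calls were present in each of the 6 compared pools. Every AG-881 pool lay below both DMSO pools in 7 of them (10.8%, against 3.77% of 7038 regions of all classes), and every AG-881 pool lay above both in 4 (6.15%, against 1.08%). Among methylated regions of lower density 4.5% of 489 lay wholly below and 7.36% wholly above, and among dense regions below the rule's level 3.26% and 0.622% of 2574 did. The 7 lay at Syt12, Rtn4rl1, Arhgef17, Efnb2, Klf2, the non-coding gene E230001N04Rik and a stretch of chromosome 1 with no gene within 1 kb. The 4 lay at Hhex, Emid1, Runx3 and the start shared by Tmem267 and 3110070M22Rik. Syt12, Rtn4rl1, Arhgef17, Hhex and Tmem267 are among the genes that the naming rule gave, and the rest were named after their values were seen.

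The naming rule asked for 50 or more calls and 10 or more cells on each side. It also asked that every AG-881 pool with 10 or more calls lay on 1 side of the pooled DMSO level. The rule set no minimum difference, and the share of regions of other classes that would meet it was not counted. Of 36 member regions with enough calls, 8 lower and 3 higher ones met the rule, so these counts describe the naming only. The lowest relative to DMSO was inside Syt12, a member of the synaptotagmin family of vesicle proteins, at chr19:4476711-4476869 with 12 members. AG-881 pools 1 to 4 had 53.8%, 65%, 50% and 46.8% there, and DMSO pools 7 and 8 had 74.5% and 80%. All AG-881 pools lay below both DMSO pools. Pooled, 51.4% of 181 calls were methylated in AG-881 cells and 76.4% of 72 calls in DMSO cells, a difference of -25 points (interval -36.9 to -11.3).

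Rtn4rl1 encodes a relative of the Nogo receptor, which binds myelin-derived inhibitors of axon growth. Its region, chr11:75193843-75194072 with 10 members, lies inside the gene. Levels were 50%, 42.9%, 45.2% and 59% in AG-881 pools 1 to 4, and 77.4% and 67.5% in DMSO pools 7 and 8. The pools of the arms did not overlap, and the pooled levels were 50.5% in AG-881 cells and 71.8% in DMSO cells (-21.4 points, interval -35.3 to -6.05). Without DMSO pool 7 the difference was -17 points, and its interval (-34 to 2.17) included 0.

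At Cdk6, the kinase that drives cells through G1 with D-type cyclins, 5 members lie at chr5:3341304-3341334, inside both Cdk6 and the predicted gene Gm36470. AG-881 pools 1 to 4 had 52.6%, 46.4%, 40% and 25%, and DMSO pools 7 and 8 had 50% and 63.3%. AG-881 pool 1 lay above DMSO pool 7, so the pools overlapped. The pooled levels were 40% in AG-881 cells and 58% in DMSO cells, and the interval of the difference reached from -34.4 to -0.505 points. The difference of -18 points became -9.32 without AG-881 pool 4 and -10 without DMSO pool 8, and both intervals then included 0.

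Arhgef17 holds 2 regions that differed in direction. The one at chr7:100931150-100931233 had 88.9%, 90.5%, 85% and 73.7% in AG-881 pools 1 to 4, and 95.9% and 93.8% in DMSO pools 7 and 8. Its pooled difference was -9.67 points, with an interval (-18.6 to 0.597) that included 0. The interval lay just below 0 without AG-881 pool 1 (-12.1 points, -24.5 to -0.271) and without pool 2 (-10.9 points, -21.1 to -0.0332). The other, chr7:100931451-100931720 with 25 members, had 73% in AG-881 cells and 67.4% in DMSO cells, and its interval (-3.96 to 15.6 points) also included 0.

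The muscle myosin chaperone gene Unc45b had 6 member regions, the most of any gene. Over their 66 members 80.1% of 548 calls were methylated in AG-881 cells (interval 76.5 to 83.4) and 85.5% of 463 calls in DMSO cells (interval 82 to 88.6). Its region at chr11:82931959-82931998 had 69.2%, 81%, 72.7% and 84.4% in AG-881 pools 1 to 4, and 88.9% and 81.2% in DMSO pools 7 and 8. The region at chr11:82931364-82931585, with 24 members, had 89.2% in AG-881 cells and 93.5% in DMSO cells, and the one at chr11:82931101-82931228, had 76.2% and 80.2%. The intervals of the 3 differences included 0, and all 3 regions lie inside both Unc45b and the overlapping gene Unc45bos. At Gse1, the last of the 8, 37.7% in AG-881 cells and 41% in DMSO cells did not differ beyond counting error. AG-881 pool 3 lay above the DMSO level there, with 55.6% of 9 calls, too few for the naming rule to count it. Without DMSO pool 7 the difference turned to 6.16 points at Gse1 and to 3.46 points at the last-named Unc45b region.

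A few regions were called in many cells, as the ribosomal DNA was. The region inside Cmss1 and Filip1l (chr16:57391520-57391584, 10 members) had 452 AG-881 and 265 DMSO calls, and the one inside Zc3h7a (chr16:11144050-11144134, 22 members) had 674 and 390. Tmem267, described with the increases, had 347 and 179. Whether these sequences have further copies in the genome was not tested. At Cmss1 and Filip1l, AG-881 pools 1 to 4 had 87.6%, 64.7%, 73.9% and 72.2%, and DMSO pools 7 and 8 had 80.6% and 95.7%. The difference was -14.3 points (interval -19.9 to -8.39), but -6.31 points without DMSO pool 8, which alone lay above all AG-881 pools, and the interval then included 0. At Zc3h7a, a zinc finger protein gene, the level was higher in AG-881 cells: 95.6%, 80.6%, 92.1% and 85.5% in AG-881 pools 1 to 4, and 75.3% and 81.6% in DMSO pools 7 and 8. The difference was 9.97 points (interval 5.18 to 14.9), and AG-881 pool 2 lay just below DMSO pool 8.

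Hhex had the largest increase among the compared regions. It encodes a homeobox factor needed for liver, blood and endoderm development. The 17 members at chr19:37435296-37435458 had 66.7%, 71.4%, 65.7% and 66.7% in AG-881 pools 1 to 4, and 16.7% and 46.8% in DMSO pools 7 and 8. The AG-881 pools lay close together and the 2 DMSO pools far apart, both below them. Pooled levels were 67.2% of 134 calls in AG-881 cells and 35.1% of 77 in DMSO cells, a difference of 32.1 points (interval 17.5 to 45.2), with 20.4 points (interval 2.95 to 37) without DMSO pool 7 and 50.5 points without pool 8.

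The regions in the printed windows of Tmem267, Emid1 and Runx3 were higher in AG-881 cells as well. At the start shared by Tmem267, a transmembrane protein gene, and the oppositely directed 3110070M22Rik (chr13:119488292-119488517, 16 members), AG-881 pools had 84.8%, 89%, 86.2% and 83.5%, and DMSO pools 7 and 8 had 69.8% and 78.4%. The difference was 10.5 points (interval 3.09 to 18.3), but 7.43 without DMSO pool 7, where the interval (-0.769 to 16.7) included 0, and 16 points without pool 8. Emid1, which encodes an extracellular protein with an EMI domain, had 52%, 75%, 75% and 47.6% in AG-881 pools 1 to 4, and 20% and 40.9% in DMSO pools 7 and 8, a difference of 26.4 points (interval 6.45 to 43.7). Without DMSO pool 7 that difference was 18 points and its interval (-6.84 to 40.3) included 0. Runx3, a runt-domain factor of T cells and sensory neurons, had 63.6%, 72.7%, 52.3% and 54.5% in AG-881 pools 1 to 4, and 27.3% and 43.2% in DMSO pools 7 and 8. Its interval (-1.06 to 33.5 points) included 0, except without AG-881 pool 3 (21.4 points, interval 0.141 to 40.7), and without DMSO pool 8 the difference was 29.5 points.

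**Figure D5:**
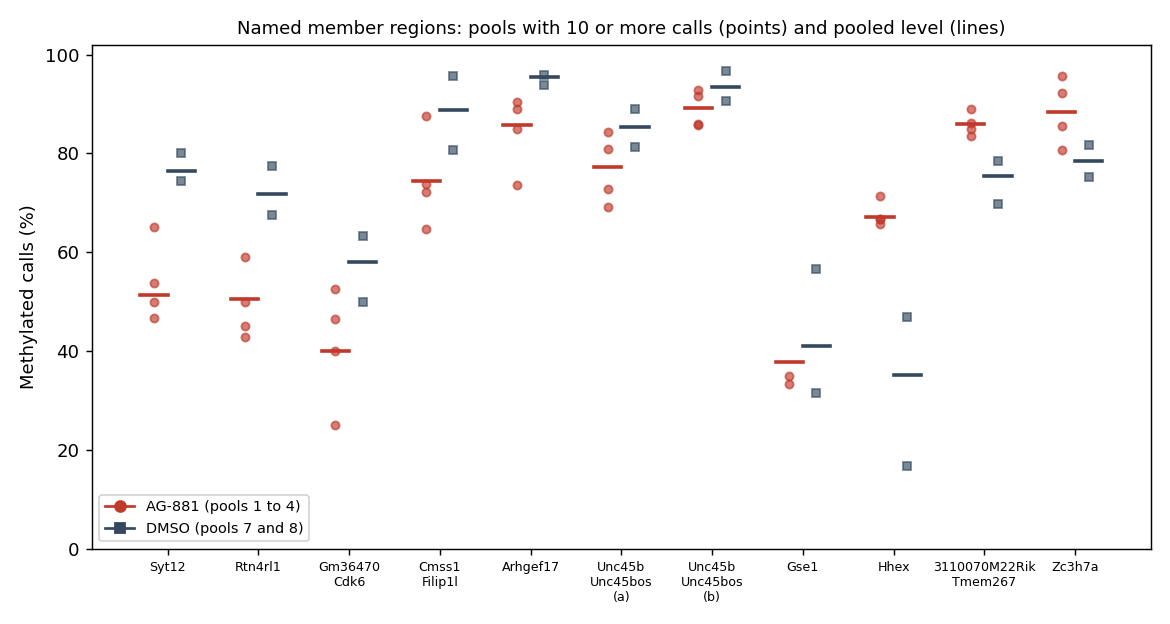
Methylated calls (y axis, %) in the 11 regions that met the naming rule for a decrease or an increase (x axis, genes within 1 kb; a and b are 2 regions of Unc45b), drawn with red marks for AG-881 on the left of each gene and dark blue ones for DMSO on the right. Points are pools with 10 or more calls and lines are the pooled levels; Hhex has the widest gap, 67.2% in AG-881 cells and 35.1% in DMSO cells.

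Efnb2 showed the largest decrease among the compared regions. It encodes ephrin B2, a membrane-bound ligand of Eph receptors in vessels and neural cells. Its 8 members at chr8:8660623-8660798 had 0% (of 12 calls, which allows up to 25%), 25%, 21.4% and 10.5% in AG-881 pools 1 to 4, and 38.9% and 69.6% in DMSO pools 7 and 8. With 71 calls in AG-881 cells and 41 in DMSO cells, the pooled levels were 15.5% and 56.1%, a difference of -40.6 points (interval -57.8 to -21.2). It was -23.4 points without DMSO pool 8, and the interval (-49.8 to 0.630) then included 0. Tfeb, a transcription factor of lysosomal genes, came next at chr17:47738340-47738445 with 19.4% of 31 calls in AG-881 cells and 58.1% of 31 in DMSO cells (-38.7 points, interval -59.8 to -12.5). Both had too few DMSO calls for the naming rule.

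The regions with the most members were mostly highly methylated in both arms. In the ribosomal DNA block the region around Rn18s-rs5 (chr17:39845523-39846264, 93 members) had 79.6% in AG-881 cells and 83.1% in DMSO cells (-3.50 points, interval -5.64 to -1.33), but -0.0481 points without DMSO pool 8. Its neighbour at chr17:39844579-39845074 (47 members) had 84.5% in AG-881 cells and 85.6% in DMSO cells, and the difference changed sign to 3.08 points without DMSO pool 8. The one at chr17:39848291-39848698 (41 members), had 78.6% and 78.5%, and -4.31 points without AG-881 pool 3. Kcng3, a modulatory potassium channel subunit, had the most members outside the block: 35 at chr17:83631462-83631744, with 78.8% in AG-881 cells and 85.6% in DMSO cells (-6.80 points, interval -14.8 to 2.82). Without DMSO pool 7 the Kcng3 difference was -14.1 points and its interval (-21.5 to -1.01) lay below 0, while it was -1.23 points without pool 8. Klf14 (20 members) had 97.8% in AG-881 cells and 96.6% in DMSO cells, and Klhl35 (20 members) 98% and 98.9%.

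Genes with several regions lay more often below the DMSO level than above it, as compared member regions did in general (84 of 144 lower, 58 higher). Whether genes with several regions differ from the others was not tested. Of the 241 genes, 27 had 2 or more regions, and Unc45b, Chd5, Foxc1 and Mpped1 had 3 or more. Pooled over its regions, Unc45b had a difference of -5.42 points (interval -10.1 to -0.606). Intervals also lay below 0 at Kbtbd11 (-32.4 to -15.9), Nkx2-4 (-36 to -12.1) and Parp12 (-29.4 to -1.20). So did that of the regions shared by Kdm2a and 9430078G10Rik (-17.5 to -0.073), which are counted once for each gene. No gene of the 27 had an interval wholly above 0. Over the 144 compared regions, 17 intervals lay below 0 and 10 above. Chd5, a chromatin remodeller and candidate tumour suppressor, had 48.7% of 195 calls in AG-881 cells and 42% of 50 in DMSO cells, within counting error. Foxc1, a forkhead factor of mesenchyme and vessels, had 66.7% in AG-881 cells and 74.7% in DMSO cells, and Mpped1 had 65.3% and 73.8%, also within counting error. Of the 2 regions of Kbtbd11, 1 had enough calls to be compared (chr8:15011281-15011358), with 82% of 128 calls in AG-881 cells and all of 36 calls in DMSO cells (-18 points, interval -25.7 to -6.41). Its difference was -6.52 points without AG-881 pool 3, and the interval then included 0, as it did without DMSO pool 8. At Adra2a, an adrenergic receptor gene, 91.7% of 60 calls were methylated in AG-881 cells and 81.5% of 54 in DMSO cells, and the interval included 0.

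Member regions touched a larger share of the assessed Hox, developmental and imprinted genes than of all assessed protein-coding genes, which describes the set that DMSO pools 5 and 6 chose and was not tested. Of 5511 protein-coding genes with assessed dense positions within 1 kb, 241 (4.37%) had a member region and 803 (14.6%) at least 1 member. Among 18 assessed Hox genes, which set position along the body axis, 4 had a region (22.2%) and 15 a member. These 4 genes have 3 regions, as Hoxd3 and Hoxd4 share 1. The shares of genes do not take into account how many dense positions each gene had assessed. Among 50 developmental transcription factors 12 had a region (24%), among 9 imprinted genes 4, among 6 germline genes 2, and among 16 Wnt antagonists, cell cycle inhibitors and tumour suppressors 2. No region lay near the 4 assessed astrocyte genes, the 5 neuron genes, the 13 ribosomal protein genes or the vascular gene assessed. Even so, 2 of the neuron genes and the vascular gene had at least 1 member, while no astrocyte or ribosomal protein gene did. With a region at 4.37% of all assessed genes, none among so few genes is no result. Clustered protocadherins and microglial genes had no assessed positions. Of the 130 compared regions near protein-coding genes, 33 were lower and 21 higher by 10 points or more in AG-881 cells, with a median of -2.28 points. This is much as over all 144 compared member regions, with 36 lower, 23 higher and a median of -2.25 points.

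Calls at the Hox genes were few. At Hoxb7 (chr11:96286934-96287087, 10 members) 51.9% of 54 calls were methylated in AG-881 cells and 63.6% of 22 in DMSO cells. A region shared by Hoxd3 and Hoxd4 (chr2:74727493-74727527) had 93.3% of 30 calls in AG-881 cells and 90% of 20 in DMSO cells. Hoxd13 had 52.8% of 36 calls in AG-881 cells and no call in DMSO pools 7 and 8. The depth could not show a difference at any of them.

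Of the developmental transcription factors, 8 regions were compared, and 3 were lower and 0 higher by 10 points or more in AG-881 cells (median -3.38 points). The shares over all 144 compared member regions were 25% lower and 16% higher, and their median difference was -2.25 points. The list of these factors does not hold Hhex or Runx3, whose regions were higher in AG-881 cells. Vax1, a homeobox factor of the ventral forebrain, had 44.8%, 32.4%, 74.1% and 68.6% in AG-881 pools 1 to 4, and 60% and 70.8% in DMSO pools 7 and 8. AG-881 pools 1 and 2 were low and pools 3 and 4 were at the DMSO level. The pooled levels were 53.9% in AG-881 cells and 64.8% in DMSO cells, a difference of -10.9 points that ran from -2.18 without AG-881 pool 2 to -16.9 without DMSO pool 7. Pitx1, a homeobox factor of hindlimb and pituitary, had 47.5% of 61 calls in AG-881 cells and 66.7% of 24 in DMSO cells, or -19.1 points, with -8.13 without AG-881 pool 4 and -10.8 without DMSO pool 7. Pax7, a marker of muscle stem cells, had 72.7% and 71.7%, and Lmx1a, a factor of roof plate and midbrain dopamine neurons, 27.8% and 25.7%. The interval of the difference included 0 at all 4.

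At imprinted genes, where methylation of 1 parental copy would give intermediate levels, the regions were not uniform. Cdkn1c, which encodes the cell cycle inhibitor p57, had 77.3% of 44 calls in AG-881 cells and 85.7% of 49 in DMSO cells at chr7:143459775-143459808. At 1 of its 2 regions (chr1:63273615-63273704), Zdbf2 had 86% of 57 calls in AG-881 cells and 87.5% of 16 calls, from 2 cells, in DMSO cells. Over both regions Zdbf2 had 80.2% of 101 calls in AG-881 cells and 80.6% of 36 in DMSO cells. Near Rasgrf1, a Ras exchange factor gene, 60.7% of 56 calls were methylated in AG-881 cells and 51.7% of 29 in DMSO cells, and the difference turned to -0.824 points without DMSO pool 8. Grb10, an adaptor that restrains growth factor signalling, had 54.5% of 44 calls in AG-881 cells and 83.3% of 18 calls in DMSO cells in its printed window, from 5 AG-881 and 2 DMSO cells, and its interval (-49.2 to 0.187 points) included 0. Without AG-881 pool 2 it was -41 points, with an interval (-64.1 to -8.71) below 0. Pairs of a cell and an imprinted region were mixed in 30 of 42 cases in AG-881 cells and in 16 of 27 in DMSO cells. No pair was free of methylation in either arm, which allows a share of up to 7.14% of pairs in AG-881 cells and 11.1% in DMSO cells.

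The germline genes had high levels in AG-881 cells. Ddx4, the germ cell RNA helicase also called Vasa, had 97.1% of 68 calls in AG-881 cells and 90.9% of 11 in DMSO cells. AG-881 pools 1 to 4 had 100%, 100%, 100% and 90.5%. Dazl, a germ cell RNA-binding protein gene, had 75.9% of 29 calls in AG-881 cells and 62.5% of 8 in DMSO cells. Neither had 20 DMSO calls, so neither was among the compared regions.

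Few glial and tumour-related genes were assessed, so shares of them with a region are imprecise. Sox10, a transcription factor that oligodendrocytes need for myelin genes, was the only oligodendrocyte gene of 6 assessed with a region. At chr15:79163774-79163825 it had 34.5% of 58 calls in AG-881 cells and 58.3% of 24 in DMSO cells (-23.9 points), with an interval (-46.8 to 1.77) that included 0. AG-881 pools 1 to 4 had 33.3% of 6 calls, 38.5% of 26, 100% of 3 and 21.7% of 23, and DMSO pools 7 and 8 had 69.2% of 13 and 45.5% of 11. The Sox10 difference was -11 points without DMSO pool 7 and -34.7 without pool 8, and -15.5 without AG-881 pool 4. The interval lay below 0 without DMSO pool 8 (-59.5 to -1.19) and without AG-881 pool 3 (-50.2 to -1.66). Sfrp1, a secreted Wnt antagonist, was the only 1 of 3 assessed genes from a list of genes reported as methylated in IDH-mutant gliomas of humans that had a region. Its 15 members at chr8:23411461-23411739 had 68%, 44%, 53.2% and 59.6% in AG-881 pools 1 to 4, and 59.6% and 75% in DMSO pools 7 and 8. AG-881 pool 1 lay between the 2 DMSO pools and the other 3 lay at or below both. Pooled, 56% of calls were methylated in AG-881 cells and 66.3% in DMSO cells (-10.4 points, interval -22.5 to 2.42), with -19 points (interval -33.3 to -1.79) without DMSO pool 7 and -3.67 points without pool 8.

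The members were chosen in cells of the same arm as the DMSO cells compared, so members were also chosen the other way round, here with the ribosomal DNA block included. When AG-881 pools 1 and 2 chose them and AG-881 pools 3 and 4 were compared with all DMSO pools, the difference was -2.57 points, and with AG-881 pools 3 and 4 choosing it was -6.07 points. When pools of both arms chose them together, it was -2.43 points for AG-881 pools 3 and 4 and -6.45 points for pools 1 and 2, each against DMSO pools 7 and 8. The sign was negative in each of these 4 settings, and the size depended on which AG-881 pools were compared. With the same weight given to each of the 2633 members that had enough calls in both arms, the main difference was -3.25 points.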

How the data were processed

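Mouse glioma cells were profiled by single-cell reduced representation bisulfite sequencing after MspI digestion, jointly with Smart-seq2, per the labels' protocols; the transcriptomes were not analysed here. The authors deposited, in a table of cytosine positions by cells, the methylated fraction, with values of 0, 0.5 or 1. No read counts come with it, so depth in reads is unknown, and 0.412% of the 12325314 values are 0.5. Positions follow mm10, per the submitters' processing notes, while aligner, methylation caller and minimum read number were not given in the sources used here. Incomplete bisulfite conversion would raise every level.

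Column names give arm and pool but no well, and columns were placed in arms and pools by these names. Values of 0.5 entered the mean of the rule and were left out of levels. Calls were pooled over cells, and intervals of differences combine the Clopper-Pearson intervals of both arms (Newcombe's method). Regions are chains of 5 or more members with gaps up to 100 bp. Genes are RefSeq genes of GRCm38.p6 whose span, widened by 1 kb, overlaps a region; this table gives both ends but no strand. Python 3.11.15, NumPy 2.4.6 and SciPy 1.17.1 were used. The difference of regions was also computed on simulated calls with known changes. Those calls were drawn independently, so they cannot show how the intervals behave where the calls of 1 cell go together.

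The text names the genes of up to 12 decreases and 12 increases with 50 or more calls and 10 or more cells on each side and every AG-881 pool with 10 or more calls on 1 side of the DMSO level, of the 10 regions with the most members, and of up to 4 regions in each of 13 gene lists. The members and the lists were chosen with earlier results of these data known. Alternatives changed the choosing pools, the density, call and level thresholds, the chains, the treatment of 0.5 and of adjacent positions, the weighting and the cells or pools included.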

Additional observations from a re-analysis of the deposited data

How the results depend on the processing

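The difference over members with the ribosomal DNA block included, -4.88 points, kept its sign in all settings tried. It was -4.28 points without the block. With the block it was -3.62 points with members chosen in DMSO pools 7 and 8 and compared with pools 5 and 6. It was -3.17 with 8 or more calls in the choosing pools, -2.88 with a mean of 0.8 or more, and -2.57 with members chosen in AG-881 pools 1 and 2. Equal weights over the 2633 members with enough calls in both arms gave a difference of -3.25 points. In settings added after seeing the data it was -6.07 with members chosen in AG-881 pools 3 and 4, -2.43 over pools 1, 2, 5 and 6, and -6.45 over pools 3, 4, 5 and 6. Leaving out 1 pool gave -7.10 to -3.68 points, and 16 to 37 regions lower and 5 to 25 higher by 10 points or more. Members numbered 7283 with 15 or more neighbours, 1876 with 25 or more, 369 with 8 or more calls, 1391 with a mean of 0.8 or more and 2464 with adjacent positions merged. Regions lower and higher were 72 and 39, 14 and 10, 3 and 2, 8 and 2, and 22 and 11 in these 5 settings, and 14 and 4 with 50 or more calls per side, where fewer regions remained. With the block included, the share of members found again at 50% or more was 67.4%. It was 69% with members chosen in pools 7 and 8, and 85.9% among the 369 members with 8 or more calls. The other 33 values moved less. Of 261 recomputed values of single named regions, 9 lay outside the interval of the main difference. Most of these intervals are wide, so a value could change sign and stay inside, as at Gse1 and Rasgrf1. The count is therefore no measure of stability.

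No paired analysis was possible because the columns carry no well or replicate number, each arm is 1 sample and no test was run. Depth limits single regions: the median compared region had 39 DMSO calls.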
